A study of Mus musculus with 24 samples.

Results

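Vascular endothelial growth factors and angiopoietins are the main families of secreted ligands that act on the endothelial cells of blood vessels. The values of 10 listed genes of this signalling were followed across 24 mouse arrays. A gene entered when a probe set named it and no other gene, and 9 of the 10 did, among 19505 named genes in all. They were the ligands Vegfa, Pgf, Angpt1 and Angpt2, the receptors Flt1, Kdr and Tek, and the endothelial surface proteins Pecam1 and Cdh5. Nrp1, a coreceptor on the list, had no probe set naming it alone and was not analysed here.

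All samples came from ICR-CD1 mice, an outbred strain, and were grandoffspring of control males or of obese males labelled SL, a code not spelled out in the sources used here. Each of the 6 groups had 4 arrays, 1 per sample: control and SL samples labelled as entire embryos on embryonic days 7.5 (ED7.5) and 14.5 (ED14.5), and control and SL liver from postnatal day 7.5 (PD7.5). No other treatment or allele is given for any group. Nothing in the labels ties samples to litters or to individual grandfathers, so p-values cover only the spread between these samples.

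VEGF-A binds the receptor tyrosine kinases VEGFR1 (Flt1) and VEGFR2 (Kdr), of which VEGFR2 carries most of the mitogenic signal and VEGFR1 acts largely as a decoy, while placental growth factor (Pgf) binds VEGFR1. Angiopoietin-1 (Angpt1) activates the receptor Tie2 (Tek) and steadies vessels, and angiopoietin-2 (Angpt2) competes with it in many settings and is abundant where vessels are remodelled, as in the pregnant uterus. In the liver, hepatocytes are a source of VEGF-A for the sinusoidal endothelium, which carries VEGFR2.

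The marker genes of the samples did not match every label. On all ED7.5 arrays all 12 decidua genes were above background, the level below which 75% of an array's intron control probes lay, with a mean percentile among named genes of 97.2 in controls and 97.5 in SL. Their summed log2 level per array was 140 to 141 in both ED7.5 arms, against 57.9 to 66.2 on the other arrays. Prl8a2, a decidual hormone, averaged 13.28 ± 0.118 (SD, n = 8) at ED7.5, whereas 7 of 10 epiblast and early mesoderm genes were below background on every ED7.5 control array and Pou5f1 was above it on 2 of 8 arrays. The ED7.5 arrays are therefore called implantation site here, after these genes. All 10 hepatocyte genes were above background on all ED14.5 arrays, with a summed level of 125 to 126 there and 132 to 133 at PD7.5. In the ED14.5 controls 7 of 10 neuron, muscle and cartilage genes were below background on every array and 0 were above it on every array. In the ED14.5 SL group these counts were 7 and 1. Of the 10 genes, 3 were called higher than at ED7.5 and 2 lower, beside 30.2% and 29.9% of all genes. Myog, Col2a1 and Stmn2 were above background on none of the 8 ED14.5 arrays, although Stmn2 was high at ED7.5 (mean 10.14). The ED14.5 arrays are called fetal liver here by their leading genes. Age, tissue and any processing batch by age cannot be told apart in the comparisons between ages, and in such bulk samples fewer vessel cells and less RNA per cell cannot be told apart.

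Between 48.3% and 64.1% of named genes lay above background per array, and the background ran from 5.05 to 6.53 in log2. The lower limit for a dim gene such as Pgf therefore differs between arrays. Replicate 2 of the ED7.5 controls and replicate 1 of the ED14.5 controls separated exon from intron control probes least, with an area under the curve of 0.867 and 0.885, against up to 0.957 on the best array. The median correlation over named genes was 0.989 between arrays of a group, 0.988 between arms of the same age and 0.854 between ages.

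Promoters are shown for members chosen by their calls, lower in the fetal liver than at ED7.5 and higher again in the neonatal liver. Windows of 250 bases before the start site came from a collection of promoter sequences (GRCm38.p6). It held one for 5 of the 9 measured genes, 4 of them with this course. RefSeq places the outermost end of Flt1, Kdr and Tek further upstream than the start site used, so the Flt1 and Kdr windows lie inside the annotated gene and that of Tek in part. Capitals mark GGAAG and its reverse CTTCC, the core of the sites bound by ETS factors. The windows are Vegfa at chr17:46032378-46032627 (minus strand), Flt1 at chr5:147726012-147726261 (minus), Kdr at chr5:75978456-75978705 (minus) and Tek at chr4:94739039-94739288 (plus).
Vegfa: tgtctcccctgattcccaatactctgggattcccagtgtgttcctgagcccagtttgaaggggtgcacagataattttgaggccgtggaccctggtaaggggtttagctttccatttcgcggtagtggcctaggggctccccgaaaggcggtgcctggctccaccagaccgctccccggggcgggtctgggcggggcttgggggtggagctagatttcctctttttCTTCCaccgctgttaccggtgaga
Flt1: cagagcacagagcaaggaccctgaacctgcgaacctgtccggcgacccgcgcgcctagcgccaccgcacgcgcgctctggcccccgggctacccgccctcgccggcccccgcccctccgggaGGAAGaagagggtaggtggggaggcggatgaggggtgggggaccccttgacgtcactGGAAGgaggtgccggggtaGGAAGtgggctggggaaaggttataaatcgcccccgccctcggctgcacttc
Kdr: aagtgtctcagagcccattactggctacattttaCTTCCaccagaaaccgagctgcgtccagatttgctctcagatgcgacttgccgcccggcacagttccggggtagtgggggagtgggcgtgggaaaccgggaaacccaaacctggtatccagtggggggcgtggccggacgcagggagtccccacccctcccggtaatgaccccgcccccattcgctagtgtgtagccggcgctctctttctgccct
Tek: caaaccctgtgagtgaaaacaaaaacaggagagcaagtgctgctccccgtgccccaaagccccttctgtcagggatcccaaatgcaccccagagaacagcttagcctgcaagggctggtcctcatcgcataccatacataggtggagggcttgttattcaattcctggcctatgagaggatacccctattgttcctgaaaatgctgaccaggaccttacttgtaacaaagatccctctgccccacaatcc
The core GGAAG, counted on both strands, occurred 3 times in the Flt1 window, 1 time each in those of Vegfa and Kdr, and 0 times in that of Tek. It is present in 64.1% of all 32851 windows of the collection. The GC box GGGCGG, counted on both strands, occurred 3 times for Flt1 and 2 times each for Kdr and Vegfa, and in 32.7% of all windows. The hypoxia response core ACGTG was found in none of the 4, and in 16.6% of all windows. GATAA occurred 1 time for Vegfa and in 22.6% of all windows. No match of one motif overlapped a match of another in these windows (0 overlapping pairs). GC content was 70.4% for Flt1, 61.6% for Kdr, 59.2% for Vegfa and 51.2% for Tek, beside a median of 52.4% over all windows. No motif of those searched was present in all 4 windows, and the 4 genes were themselves chosen by their course. Relative to ED7.5 their neonatal levels differed, from −1.09 for Flt1 to 0.24 for Kdr. Pecam1 and Cdh5, called in the same directions, had no window.

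Vegfa (chr17:46016993-46032377 in GRCm38) encodes a ligand of both VEGFR1 and VEGFR2. Its log2 values were 9.71, 9.83, 9.66 and 9.42 in the ED7.5 controls and 9.55, 9.44, 9.19 and 9.33 in the ED7.5 SL arrays. In the fetal liver they were 7.76, 7.51, 7.50 and 7.96 in controls and 7.60, 7.78, 7.61 and 7.69 in SL. In the neonate they were 9.16, 9.27, 9.82 and 9.54 in controls and 9.01, 9.29, 9.66 and 9.61 in SL. All 8 fetal liver arrays were below all 16 others, while the implantation site and the neonatal liver overlapped. The mean of Vegfa was 9.51 ± 0.212 (SD, n = 8) at ED7.5, 7.68 ± 0.154 at ED14.5 and 9.42 ± 0.279 at PD7.5. It was 3.58-fold lower in the fetal liver than at the implantation site (log2 difference −1.84, SE 0.11, limma adjusted p = 5.09e-13) and 3.35-fold higher in the neonatal than in the fetal liver (1.74, SE 0.11, adjusted p = 2.02e-12). Only 8.2% of named genes differed more between the livers. The difference between the neonatal liver and the implantation site was −0.10, with a 95% confidence interval of −0.32 to 0.13 (adjusted p = 0.464), and 0.02 after centring each array on its median.

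Angpt2 (chr8:18690263-18741562), the angiopoietin of remodelling vessels, was the member with the widest range. At ED7.5 it measured 12.36, 12.39, 12.23 and 12.40 in controls and 12.39, 12.30, 12.45 and 12.15 in SL. The fetal liver values were 6.36, 6.15, 6.31 and 6.11 in controls and 5.19, 6.41, 6.20 and 5.97 in SL. Those of the neonatal liver were 5.87, 5.96, 5.85 and 6.33 in controls and 5.29, 5.62, 5.96 and 5.85 in SL. The implantation site lay far above both livers on every array, and the livers overlapped each other. Angpt2 was above background on 5 of 8 fetal and 3 of 8 neonatal liver arrays, and on 8 of 8 at ED7.5. It was 75.9-fold lower in the fetal liver (log2 difference −6.25, SE 0.134, adjusted p = 3.34e-21), or 69.2-fold with the dim arrays set at their background, and 0.651% of named genes differed more. It was 90.1-fold lower in the neonatal liver than at ED7.5 (−6.49, SE 0.134, adjusted p = 7.36e-22), or 79.6-fold with dim arrays at background. Between the livers the difference was −0.25 (SE 0.134, adjusted p = 0.125), and it passed the threshold after a second quantile normalization (−0.36, adjusted p = 0.0374) and without replicate 1 of the ED14.5 SL group (−0.37, adjusted p = 0.00363).

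Angpt1 (chr15:42424667-42676977), the activating ligand of Tie2, ran the other way. Its values at ED7.5 were 5.00, 6.27, 6.29 and 6.31 in controls and 5.63, 5.88, 6.43 and 6.14 in SL. The fetal liver had 6.90, 7.20, 6.95 and 7.04 in controls and 6.89, 7.23, 7.50 and 7.52 in SL. The neonatal liver had 6.28, 7.10, 6.86 and 6.66 in controls and 7.11, 7.35, 6.66 and 7.33 in SL. Every fetal liver array was above every ED7.5 array, while 1 neonatal control array lay among the ED7.5 values. Angpt1 was 2.23-fold higher in the fetal liver (1.16, SE 0.178, adjusted p = 4.56e-06) and 1.9-fold higher in the neonatal liver (0.92, SE 0.178, adjusted p = 8.27e-05) than at the implantation site. The livers differed by −0.23 (SE 0.178, adjusted p = 0.277). Angpt1 was a dim gene, above background on 6 of 8 arrays at ED7.5 and on 8 of 8 at each later age, and on 0 arrays of any age when background was set at the 95th percentile of the intron probes.

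Pgf (chr12:85166637-85177785), a ligand of VEGFR1, ranged from 6.77 to 8.09 at ED7.5, from 4.24 to 5.80 at ED14.5 and from 3.57 to 5.25 at PD7.5. It was above background on all 8 implantation site arrays and on none of the liver arrays. It was at least 2.36-fold lower in the fetal liver (−2.40, SE 0.247, adjusted p = 9.13e-09) and at least 2.62-fold lower in the neonatal liver (−2.98, SE 0.247, adjusted p = 2.08e-10), where a lower bound is taken against the array background. Between the livers its fitted difference was −0.58 (SE 0.247, adjusted p = 0.049), with both groups below background, so no fold is given. That call was lost in 14 of 26 other settings, among them the removal of replicate 1, 2 or 4 of the ED14.5 controls, 1 or 2 of ED14.5 SL, 1, 3 or 4 of the PD7.5 controls, or 1 or 4 of PD7.5 SL, with adjusted p-values of 0.052 to 0.124.

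**Figure D1:**
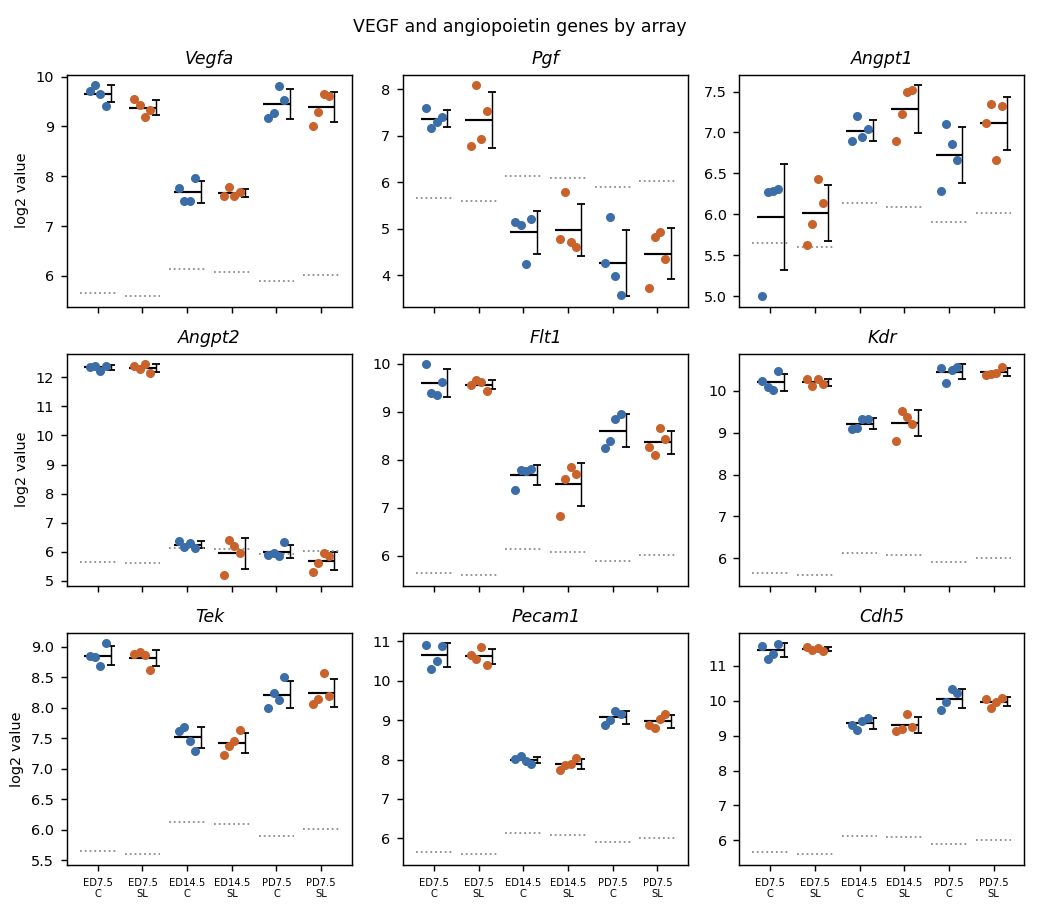
Log2 value (vertical axis) of each measured gene on each array, by group on the horizontal axis, with control (C) in blue and SL in orange. Black lines are group means, error bars are SD over 4 arrays, and dotted grey lines are the mean background of the group: Angpt2 lies above 12 on all 8 ED7.5 arrays and near background on all liver arrays, and Vegfa, Kdr, Flt1, Tek, Pecam1 and Cdh5 are lowest at ED14.5.

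Kdr (chr5:75932827-75979072) encodes VEGFR2, the main signalling receptor. Its values were 10.24, 10.10, 10.01 and 10.47 in the ED7.5 controls and 10.27, 10.11, 10.27 and 10.17 in the ED7.5 SL group. The ED14.5 values were 9.08, 9.11, 9.32 and 9.33 in controls and 8.81, 9.51, 9.38 and 9.21 in SL. The PD7.5 values were 10.55, 10.19, 10.50 and 10.58 in controls and 10.38, 10.39, 10.42 and 10.58 in SL. The fetal liver was below both other ages on every array. Kdr was 1.98-fold lower in the fetal liver than at ED7.5 (−0.99, SE 0.0942, adjusted p = 2.53e-09) and 2.35-fold higher in the neonatal than in the fetal liver (1.23, SE 0.0942, adjusted p = 6.29e-11). Of the 3 receptors Kdr, Flt1 and Tek it alone was higher in the neonatal liver than at the implantation site, by 1.18-fold with overlapping arrays (0.24, SE 0.0942, adjusted p = 0.0277), a call that was lost in 9 of 27 other settings, with an adjusted p of up to 0.176. It was lost without replicate 2 or 3 of the ED7.5 controls, 2 of ED7.5 SL, 1 or 4 of the PD7.5 controls, or 4 of PD7.5 SL, with adjusted p-values of 0.0512 to 0.0639.

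Flt1 (chr5:147561604-147726438) encodes VEGFR1. At ED7.5 it measured 9.99, 9.40, 9.35 and 9.62 in controls and 9.56, 9.66, 9.61 and 9.43 in SL. At ED14.5 it measured 7.37, 7.78, 7.76 and 7.81 in controls and 6.84, 7.59, 7.84 and 7.71 in SL. At PD7.5 it measured 8.24, 8.40, 8.84 and 8.95 in controls and 8.26, 8.11, 8.67 and 8.43 in SL. The 3 ages did not overlap, with the implantation site highest and the fetal liver lowest. Flt1 was 3.97-fold lower in the fetal liver (−1.99, SE 0.14, adjusted p = 1.1e-11) and 2.13-fold lower in the neonatal liver (−1.09, SE 0.14, adjusted p = 3.36e-07) than at ED7.5, and 1.87-fold higher in the neonatal than in the fetal liver (0.90, SE 0.14, adjusted p = 5.87e-06).

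Tek (chr4:94739086-94874976) encodes the angiopoietin receptor Tie2. Its values were 8.86, 8.83, 8.68 and 9.06 in the ED7.5 controls and 8.89, 8.91, 8.87 and 8.62 in the ED7.5 SL group. In the fetal liver they were 7.62, 7.68, 7.46 and 7.30 in controls and 7.23, 7.38, 7.45 and 7.63 in SL. In the neonate they were 8.0, 8.24, 8.13 and 8.51 in controls and 8.06, 8.15, 8.58 and 8.19 in SL. These ranges did not overlap either, in the same order as for Flt1. Tek was 2.59-fold lower in the fetal liver (−1.37, SE 0.0952, adjusted p = 8.26e-12) and 1.53-fold lower in the neonatal liver (−0.61, SE 0.0952, adjusted p = 5.59e-06) than at ED7.5, and 1.7-fold higher in the neonatal than in the fetal liver (0.76, SE 0.0952, adjusted p = 2.35e-07).

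Pecam1 (chr11:106654213-106715281), an adhesion molecule of endothelium, platelets and some leukocytes, ranged from 10.29 to 10.90 at ED7.5, from 7.73 to 8.08 at ED14.5 and from 8.79 to 9.23 at PD7.5. It was 6.49-fold lower in the fetal liver (−2.70, SE 0.096, adjusted p = 3.09e-17) and 3.06-fold lower in the neonatal liver (−1.61, SE 0.096, adjusted p = 4.63e-13) than at the implantation site. Cdh5 (chr8:104101613-104144504), the cadherin of endothelial junctions, ranged from 11.21 to 11.64, from 9.12 to 9.63 and from 9.73 to 10.33 at the 3 ages. It was 4.4-fold lower in the fetal liver (−2.14, SE 0.0962, adjusted p = 2.46e-15) and 2.72-fold lower in the neonatal liver (−1.44, SE 0.0962, adjusted p = 3.81e-12). Both were higher in the neonatal than in the fetal liver, Pecam1 by 2.12-fold (1.09, SE 0.096, adjusted p = 8.06e-10) and Cdh5 by 1.62-fold (0.69, SE 0.0962, adjusted p = 1.18e-06). Neither gene had overlapping arrays between any of the ages.

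**Figure D2:**
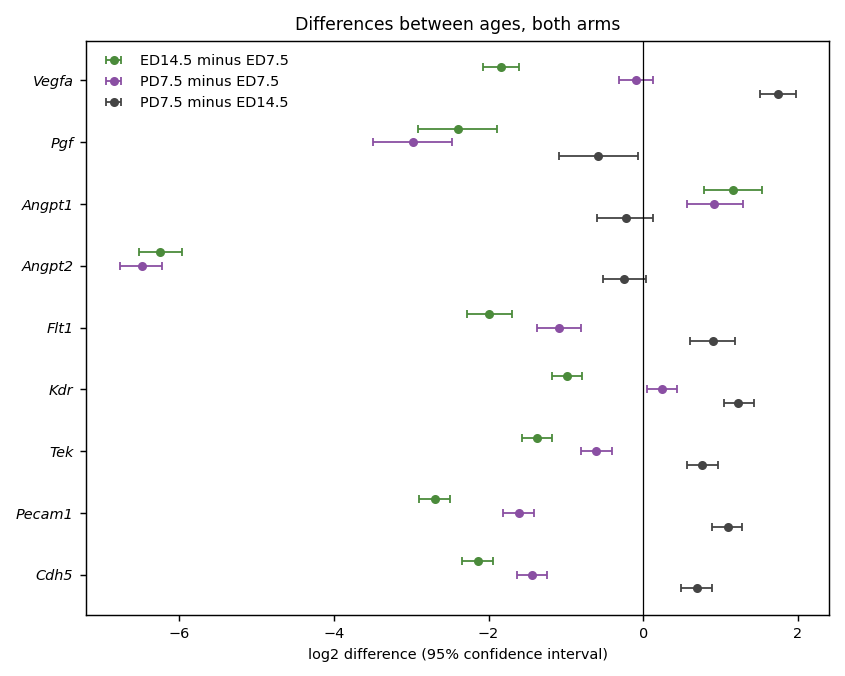
Log2 difference between ages (horizontal axis, points) for each measured gene, over 8 arrays per age, with 95% confidence intervals as bars. Every gene but Angpt1 lies left of 0 for ED14.5 minus ED7.5, and Vegfa, Flt1, Kdr, Tek, Pecam1 and Cdh5 lie right of 0 for PD7.5 minus ED14.5.

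Counted together, 8 of the 9 genes were lower and 1 was higher in the fetal liver than at the implantation site, where 29.9% and 30.2% of all named genes were called in those directions. None of the 9 overlapped between these ages, against 39.5% of named genes without overlap, and their median difference was −1.99 beside 0.02 over all genes. In the neonatal liver 6 were lower and 2 higher than at ED7.5, beside 36.4% and 26.8% of all genes, with a median of −1.09 beside −0.05, and 6 did not overlap (36.7% of all genes). From the fetal to the neonatal liver 6 were higher and 1 lower, beside 26.7% and 30% of all genes, with a median of 0.76 beside 0.01, and 6 did not overlap (32.6%). The 1 lower was Pgf, below background on every liver array, and its call was lost in 14 of 26 other settings. The 3 comparisons share arrays. Centring each array on the median of its named genes raised all differences of ED14.5 from ED7.5 by 0.18 and those of PD7.5 from ED7.5 by 0.12, and left the call of every member as it was. With that centring 63.1% of all calls between ED14.5 and ED7.5 were higher, against 50.2% without it.

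Within an array the difference between 2 genes shows how their balance moved between ages, although it does not rank their levels. Angpt2 minus Angpt1 was 6.34 ± 0.493 (SD, n = 8) at ED7.5, −1.07 ± 0.421 at ED14.5 and −1.08 ± 0.574 at PD7.5. Its lowest value at ED7.5 was 5.94 and its highest in either liver was −0.33. The size of this gap rests in part on dim values, with Angpt2 below background on 8 of 16 liver arrays and Angpt1 below it on 2 of 8 ED7.5 arrays. Kdr minus Cdh5 went from −1.26 ± 0.0835 through −0.11 ± 0.195 to 0.43 ± 0.208, and Tek minus Cdh5 from −2.62 ± 0.125 through −1.86 ± 0.261 to −1.79 ± 0.242. Relative to this junction protein both receptors were thus higher in the livers than at ED7.5, on every array. Flt1 minus Kdr went the other way, from −0.63 ± 0.188 through −1.63 ± 0.218 to −1.96 ± 0.283. Vegfa minus Kdr was −0.69 ± 0.298, −1.54 ± 0.226 and −1.03 ± 0.258. Pgf minus Flt1 was −2.23 ± 0.402, −2.64 ± 0.593 and −4.12 ± 0.766, with Pgf below background at the later ages. These differences are given without a test.

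**Figure D3:**
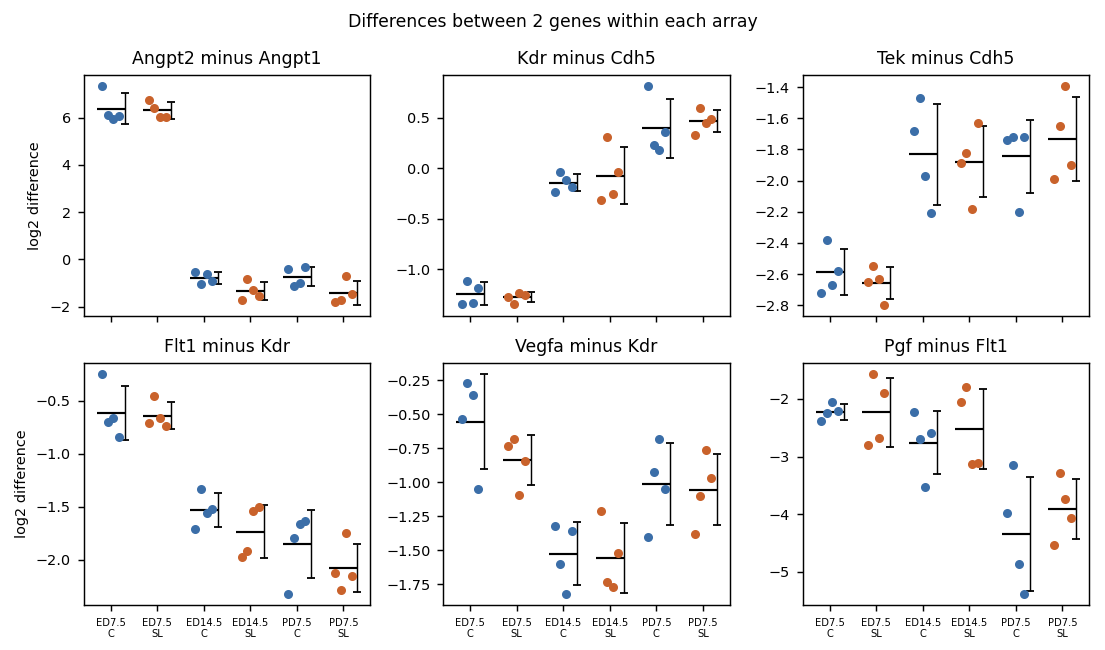
Difference of log2 values between 2 genes on the same array (vertical axis) by group, control in blue and SL in orange, with group means as black lines and SD over 4 arrays as bars. Angpt2 minus Angpt1 is above 5.9 on all ED7.5 arrays and below 0 on all liver arrays, and Kdr minus Cdh5 is above 0 on all PD7.5 arrays.

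The relatives of these genes were then read from a list of 8 further VEGF and Tie family genes, all measured. In the fetal liver 5 were lower and 1 higher than at ED7.5, with a median of −0.79, and in the neonatal liver 3 were lower and 4 higher, with a median of 0.09. From the fetal to the neonatal liver 6 were higher and 1 lower, with a median of 0.67. Among the 6 was Angpt4 (0.78, adjusted p = 0.00137), which was below background on every array of both livers. The shares of all genes were 29.9% lower and 30.2% higher in the first comparison, 36.4% and 26.8% in the second, and 30% and 26.7% in the last, so the 3 of 8 lower in the neonatal liver is near the share of all genes. Angpt4, another Tie2 ligand, resembled Angpt2, with a mean of 10.14 ± 0.25 (SD, n = 8) at ED7.5, 4.30 ± 0.511 at ED14.5 and 5.08 ± 0.376 at PD7.5, and no liver array above background. It was at least 16.3-fold lower in the fetal liver (−5.84, adjusted p = 9.44e-18) and at least 18.1-fold lower in the neonatal liver (−5.06, adjusted p = 1.12e-16). Vegfd, a ligand of VEGFR3, was 6.76-fold lower in the fetal liver (−2.76, SE 0.116, adjusted p = 6.77e-16), or 6.59-fold with dim arrays at background, and 5.02-fold lower in the neonatal liver (−2.33, adjusted p = 1.5e-14). Tie1, the partner receptor of Tie2, had means of 8.70, 7.17 and 7.73, the same order as Tek, and was 2.88-fold lower in the fetal liver than at ED7.5 (−1.52, SE 0.116, adjusted p = 4.34e-11).

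A second set of relatives was highest in the neonatal liver. Ptprb, the endothelial phosphatase that acts on Tie2, had means of 7.50 ± 0.256 (SD, n = 8), 6.58 ± 0.259 and 9.10 ± 0.158 at the 3 ages, and was 5.77-fold higher in the neonatal than in the fetal liver (2.53, SE 0.116, adjusted p = 7.46e-15). It was 3.05-fold higher there than at ED7.5 (1.61, adjusted p = 1.62e-11). Flt4, which encodes VEGFR3, was 2.73-fold higher in the neonatal than in the fetal liver (1.45, adjusted p = 2.09e-09), and its difference between ED14.5 and ED7.5 was −0.26 (adjusted p = 0.0996). Nrp2, a VEGF coreceptor, was 2.85-fold higher (1.51, adjusted p = 6.16e-11). Vegfb and Vegfc had means between 6.89 and 7.64 at every age, with small called differences and overlapping arrays. Vegfb was 1.27-fold higher in the fetal liver than at ED7.5 (0.35, adjusted p = 0.00578). It was 1.37-fold lower in the neonatal than in the fetal liver (−0.45, adjusted p = 0.000704), the reverse of the order of Vegfa. Vegfc was 1.22-fold higher in the neonatal liver than at ED7.5 (0.28, adjusted p = 0.0285).

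**Figure D4:**
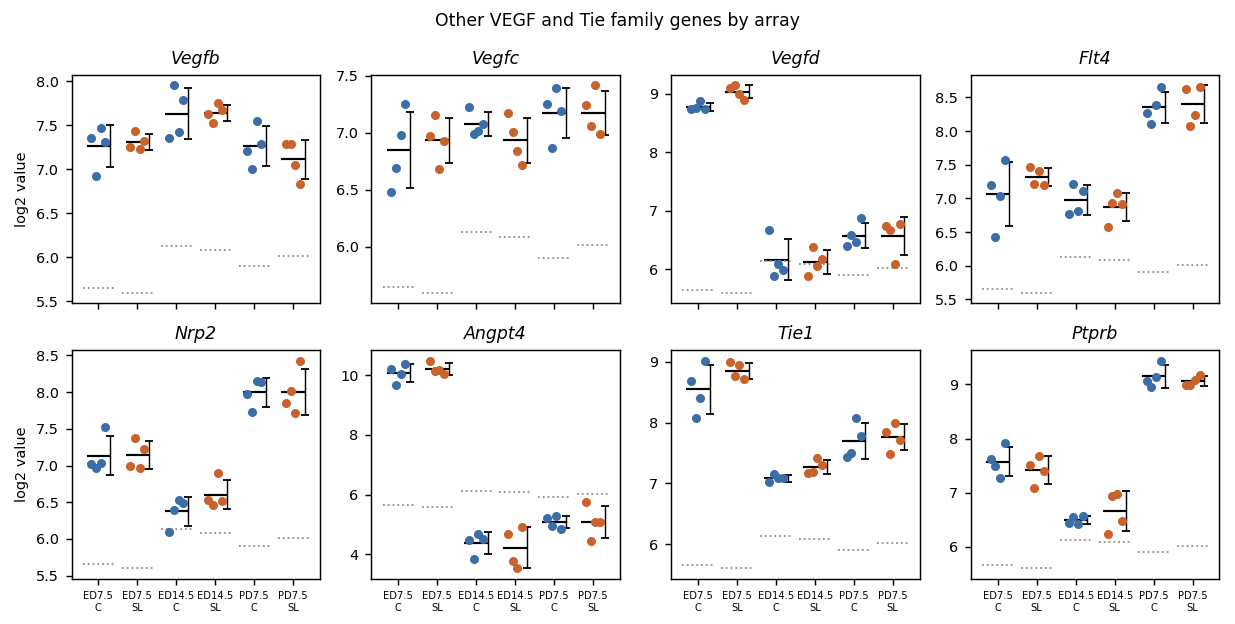
Log2 value (vertical axis) of 8 further VEGF and Tie family genes on each array by group, control in blue and SL in orange, with group means as black lines, SD over 4 arrays as bars and the mean background as dotted lines. Angpt4 and Vegfd are highest at ED7.5, whereas Flt4, Nrp2 and Ptprb are highest at PD7.5.

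Lists of endothelial genes were read beside the members, each to be set against the share of all genes called: 29.9% lower and 30.2% higher in the fetal liver than at ED7.5, 36.4% and 26.8% in the neonatal liver, and 30% lower and 26.7% higher in the neonatal than in the fetal liver. Of 19 measured endothelial identity genes, 17 were lower and 1 higher in the fetal liver than at ED7.5 (median −1.72), and 10 were higher and 2 lower in the neonatal than in the fetal liver (median 0.33). Emcn, a mucin of veins and capillaries, differed by −4.18 in the fetal liver (SE 0.134, adjusted p = 4.34e-18), where it was above background on 5 of 8 arrays. Gpihbp1, which holds lipoprotein lipase on capillaries, was at least 5.15-fold lower in the fetal liver (−3.38, adjusted p = 8.63e-17) and at least 3.85-fold higher in the neonatal than in the fetal liver (2.96, adjusted p = 2.54e-15). Between the livers S1pr1, a sphingolipid receptor of endothelium, was 4.42-fold higher in the neonate (2.14, adjusted p = 4.74e-15). At PD7.5, 15 of the 19 were lower than at ED7.5 and 3 higher (median −0.92), and Cd34 was 15-fold lower (−3.91, adjusted p = 1.65e-19). The summed level of the 19 genes per array was 156 to 164 at ED7.5, 125 to 130 at ED14.5 and 134 to 142 at PD7.5, and its part in the differences of the members was not tested.

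Most genes of liver sinusoidal endothelium followed another order. Of 11 measured, 9 were higher and 1 lower in the fetal liver than at ED7.5 (median 2.19, with 30.2% and 29.9% of all genes), and 8 were higher and 1 lower in the neonatal than in the fetal liver (median 0.98, with 26.7% and 30%). Stab2, a scavenger receptor of sinusoids, averaged 4.45 ± 0.348 (SD, n = 8), 8.79 ± 0.204 and 9.77 ± 0.176 at the 3 ages, and was above background on none of the ED7.5 arrays. Clec4g, a sinusoidal lectin, averaged 4.15 ± 0.323 at ED7.5 and 5.98 ± 0.352 at ED14.5, and was above background on 0, 4 and 8 of 8 arrays at the 3 ages. Lyve1, shared with lymphatic vessels, was the other way, at 11.11 ± 0.219, 10.51 ± 0.0777 and 10.03 ± 0.275, and above background on every array. Platelets and their precursors also carry Pecam1 and Angpt1: the 7 measured megakaryocyte genes had a summed level of 33.3 to 35.3 at ED7.5, 58 to 62.8 at ED14.5 and 49.2 to 55.8 at PD7.5. Macrophage genes, 9 measured, summed to 48.6 to 53.1, 65 to 68.6 and 78.6 to 82 at the 3 ages. Their part in the differences of the members was not tested.

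Transcription factors of endothelium split by gene. Of 16, 12 were lower and 3 higher in the fetal liver than at ED7.5 (median −1.0), beside 29.9% and 30.2% of all genes. The higher ones included Lyl1 (4.40, adjusted p = 3.7e-19) and Tal1 (4.39, adjusted p = 3.87e-18, above background on 1 of 8 ED7.5 arrays), which blood progenitors and erythroid cells also express, and the 6 measured erythroid genes had a summed level of 70.6 to 72 at ED14.5 against 27.9 to 34.4 at ED7.5. Gata2, also a factor of decidual stroma, was 12.2-fold lower (−3.60, adjusted p = 1.55e-17). At PD7.5, 9 were lower and 5 higher than at ED7.5 (median −0.75, with 36.4% and 26.8% of all genes), with Sox17, a factor of arterial endothelium, at least 3.32-fold lower (−2.77, adjusted p = 8.64e-12) and Hhex, also a hepatocyte factor, 10.4-fold higher (3.37, adjusted p = 1.93e-18). From the fetal to the neonatal liver 7 were higher and 4 lower (median 0.18), beside 26.7% and 30% of all genes.

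Of 11 Notch pathway genes of vessels, 9 were lower and none higher in the fetal liver than at ED7.5 (median −0.87), among them the ligand Jag2, at least 1.75-fold lower (adjusted p = 7.98e-10), and the receptor Notch4, at least 2.12-fold lower (adjusted p = 7.5e-10), both below background on all 8 fetal liver arrays. Beside these stand the 29.9% of all genes that were lower and the 30.2% that were higher. In the neonatal liver 7 were lower and 3 higher than at ED7.5 (median −1.24, with 36.4% and 26.8% of all genes), and from the fetal to the neonatal liver 5 were higher and 2 lower (median 0.35, with 26.7% and 30%), with Notch1 higher by 0.90 (adjusted p = 1.66e-06). Of 11 mural cell genes, 10 were lower in the fetal liver (median −1.24) and 7 lower with 1 higher in the neonatal liver (median −0.68) than at ED7.5. From the fetal to the neonatal liver 7 were higher and 2 lower (median 0.56), and the shares of all genes are those given for the Notch genes. Rgs5, a pericyte gene, was at least 12.3-fold lower in the fetal liver (−4.47, adjusted p = 1.29e-17) and at least 3.82-fold higher again in the neonatal than in the fetal liver (2.78, adjusted p = 1.55e-13). Des, which decidual stroma also expresses, averaged 12.44 at ED7.5 and 5.66 in the fetal liver (difference −6.78, SE 0.0976, adjusted p = 5.03e-24), where it was above background on 1 of 8 arrays, so no fold is given.

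Vegfa is a target of hypoxia-inducible factors, and of 16 genes of oxygen sensing and hypoxia response 11 were lower and 4 higher in the fetal liver than at ED7.5 (median −0.64), beside 29.9% and 30.2% of all genes. Adm, a vasodilator peptide, differed by −4.64 (adjusted p = 5.05e-18) and was above background on 4 of 8 fetal liver arrays, and Epas1, which encodes HIF-2α, was 17.2-fold lower (−4.10, SE 0.0825, adjusted p = 1.18e-21). At PD7.5, 12 of them were lower and 2 higher than at ED7.5 (median −0.99), beside 36.4% and 26.8%. From the fetal to the neonatal liver 7 were higher and 5 lower (median 0.14), beside 26.7% and 30%, so the count of lower genes is near that share. Among them were Hif3a, at least 15.3-fold lower (−5.15, adjusted p = 3.3e-18), and Epas1, 5.33-fold higher (2.41, adjusted p = 4.96e-17). The glucose transporter gene Slc2a1 was 18-fold lower (−4.17, adjusted p = 1.02e-18). Unlike Adm and Epas1, Hif3a had a higher mean in the fetal liver (9.9) than at ED7.5 (7.92), as had Slc2a1 (12.93 and 12.65). Slc2a1 is also a glucose transporter of fetal erythroid cells. The part of oxygen sensing in the Vegfa differences was not tested.

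Downstream of the receptors, 14 of 15 measured signal transduction genes were lower and 1 higher in the fetal liver than at ED7.5 (median −0.67), beside 29.9% and 30.2% of all genes. Hspb1, a small heat shock protein phosphorylated after VEGFR2 activation, was at least 11.8-fold lower (−5.21, adjusted p = 5.69e-17). Cav1, the caveolin of capillary endothelium, was at least 1.32-fold lower (−1.86, adjusted p = 7.7e-15). In the neonatal liver 8 were lower and 3 higher than at ED7.5 (median −0.31), beside 36.4% and 26.8% of all genes. Between the livers 8 were higher in the neonate and 2 lower (median 0.36), beside 26.7% and 30%, with Plcg1, the phospholipase that binds VEGFR2, 2.41-fold higher (1.27, adjusted p = 2.43e-12). Of 11 measured secreted angiogenesis inhibitors, 5 were lower and 4 higher in the fetal liver (median 0.06), beside the same 29.9% and 30.2% of all genes, to which the 4 of 11 are near. Sema3e, a repellent semaphorin, was at least 43.8-fold lower (−6.32, adjusted p = 6.77e-19), while the thrombospondin gene Thbs1, also expressed in megakaryocytes, was 6.84-fold higher (2.77, adjusted p = 5.17e-15). Relative to ED7.5, 6 were lower and 5 higher in the neonatal liver (median −0.90, with 36.4% and 26.8% of all genes), with Thbs2 higher by 3.97 (adjusted p = 1.34e-15) and above background on 2 of 8 ED7.5 arrays. From the fetal to the neonatal liver 5 were higher and 4 lower (median 0.37, with 26.7% and 30% of all genes), with Col18a1, the precursor of endostatin, 4.65-fold higher (2.22, adjusted p = 4.05e-15).

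The genes whose course over the 24 arrays was most like that of a member were found by the root mean square difference of values centred on each gene's mean, among 12015 genes above background on every array of at least 1 group. For Angpt2 these were Slco5a1 (0.332 in log2), Des (0.36) and Hoxa11 (0.391), beside a median of 3.01 over all candidates. Slco5a1 and Hoxa11 were above background on 0 of 16 liver arrays and Des on 3 of 16, so this likeness describes a high ED7.5 level over values at or near background. For Vegfa they were Tmem150a (0.228), Fam107b (0.229) and Nedd4l (0.234), with a median of 1.05. Tek was most like Eng, another endothelial receptor gene (0.16), then Edem1 (0.166) and Snx9 (0.171). The genes nearest Kdr were Mmp14 (0.149), Lamp2 (0.166) and Srr (0.168). For Pgf they were Sox17, Nxn and Jag2, with Pgf, Sox17 and Jag2 below background on all 16 liver arrays, so this likeness too describes values that have no order in the livers. Flt1 was most like Dag1 (0.184), Ppp1r16b (0.229) and Cyb5r3 (0.231), with Cdh5 in place 6 (0.243). Nearest to Cdh5 were Ankrd46 (0.141), Cnn3 (0.183) and Dag1 (0.189), nearest to Pecam1 were Pxdn (0.155), Bgn (0.199) and Psap (0.206), and nearest to Angpt1 were Etfbkmt (0.305), Dcun1d1 (0.329) and Mettl22 (0.331).

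The study's own question was whether descent from obese grandfathers changed expression, and it was read for these genes at each age. At no age did any of the 9 genes pass the threshold between SL and control in limma, where 1 gene of all 19505 passed at ED7.5 (0.00513%), 10 at ED14.5 (0.0513%) and 0 at PD7.5 (0%). No member was without overlap between the arms, against 3.05%, 7.98% and 4.43% of all genes at the 3 ages. At an unadjusted p under 0.05 there was 1 member in all, Vegfa at ED7.5, beside 1070 genes (5.49%) at ED7.5, 2223 (11.4%) at ED14.5 and 1543 (7.91%) at PD7.5. The median difference of the members was −0.02, −0.05 and −0.06, and 3 of 9 lay above 0 at each age.

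The Vegfa difference at ED7.5 was −0.28 (SE 0.124, 95% interval −0.56 to 0.00, unadjusted p = 0.0494, adjusted p = 0.906), and at ED14.5 and PD7.5 it was −0.01 and −0.06. Angpt1 differed by 0.05, 0.27 and 0.39 at the 3 ages, with an interval of −0.09 to 0.87 at PD7.5 (SE 0.215, adjusted p = 0.692). Angpt2 differed by −0.02, −0.29 and −0.32, with an interval of −0.73 to 0.08 at PD7.5 (SE 0.181, adjusted p = 0.698). In the livers Angpt2 minus Angpt1 had a mean of −0.79 in control and −1.35 in SL arrays at ED14.5 and of −0.72 in control and −1.44 in SL arrays at PD7.5, with overlapping arrays at both ages and Angpt2 near background. Flt1 differed by −0.24 at PD7.5 (SE 0.196, adjusted p = 0.793), and Kdr by 0.00, 0.02 and −0.01. Intervals of this width do not show that the arms were alike.

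The SL effect was also compared between ages, with 0 of 9 members called in any of the 3 interaction tests, beside 15 genes (0.0769%) for ED14.5 against ED7.5, 1 (0.00513%) for PD7.5 against ED7.5 and 5 (0.0256%) for PD7.5 against ED14.5. The largest member differences were 0.34 for Angpt1 (SE 0.356, adjusted p = 0.814) and −0.30 for Angpt2 (adjusted p = 0.775), both between PD7.5 and ED7.5. In every other list of vessel genes above, 0 members passed in any SL comparison. Within the endothelial identity list the smallest p between SL and control at one age belonged to Vwf at ED14.5, at −0.55 (SE 0.14, adjusted p = 0.19), with every SL array below every control array. At that age 7.98% of all genes had no overlap between the arms. The interaction of Vwf between ED14.5 and ED7.5 was −0.80 (SE 0.233, unadjusted p = 0.00228, adjusted p = 0.304). Other lists held smaller limma p-values. Among them were Pdk1 at PD7.5 (0.60, unadjusted p = 0.00089, adjusted p = 0.509) and the Prkca interaction between PD7.5 and ED14.5 (1.15, unadjusted p = 0.000425, adjusted p = 0.126).

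**Figure D5:**
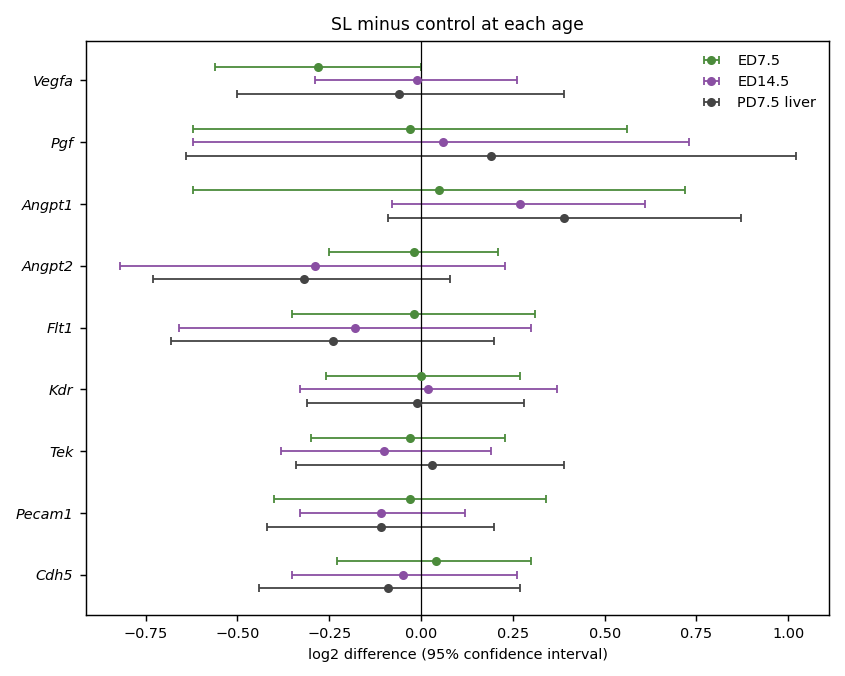
Log2 difference of SL minus control (horizontal axis, points) for each measured gene at each age, with 95% confidence intervals over 4 arrays per arm as bars. Every interval crosses 0 except that of Vegfa at ED7.5, which ends just below it.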

How the data were processed

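Total RNA of 24 samples was measured on single-colour arrays, 4 per group. The deposited values are log2 summaries per probe set, made by the authors with RMA in the oligo package, per the submitters' processing notes. Neither its version nor a joint run of the arrays is given in the sources used here. RMA includes quantile normalization, which pulls arrays of different tissues to 1 distribution. That the scale is log2 was inferred from RMA and from the values' range, and no further normalization was applied. Of 29129 probe sets, 6923 were controls, 19572 named 1 gene and the other 2634 named none or more than 1. The brightest was used for the 55 genes with several, which left 19505 genes.

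Differences were fitted with limma 3.58.1 in R 4.3.3 (tables read by the data.table package, 1.17.8), within an age for SL against control and over all 24 arrays for ages and interactions. Two-sided p-values received a Benjamini-Hochberg adjustment across all 19505 genes, and 0.05 was the threshold. Background was the 75th percentile of the 5222 intron control probes of an array. A gene below it on every array of a group has only a bound there, given as a fold of at least that size. The number of arrays limits the precision.

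The members, lists and alternatives were chosen with earlier results of these data known. All members and the 8 further VEGF and Tie family genes are named. Of each list, up to 3 genes with the largest change past the threshold in a comparison were eligible, or the smallest p where none passed, together with the 3 genes most like each member and the defining markers. Stated gene functions are background. The fit was checked on simulated data. For a simulated log2 change of 1, 70% of changed genes were called in the right direction for SL against control at ED14.5. This share was 95% for ED14.5 against ED7.5 and 49% for the SL effect between PD7.5 and ED14.5. For a change of 2 the shares were 97%, 100% and 97%. Alternatives covered the variance model, array weights, low values, scaling, probe set choice, background level, samples in the fit, the replicate block and leaving out each replicate. Leaving out the 2 arrays on which exon and intron probes were least separated was added after seeing the data.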

Additional observations from a re-analysis of the deposited data

Results flagged for a closer look

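In 54 groups of 4 arrays, 1 per measured gene and group, a single array stood apart from the other 3 by Dixon's test in 5, where chance gives about 1 in 20 groups. Angpt1 measured 5.00 on replicate 1 of the ED7.5 controls, against 6.27 to 6.31 on the others. Pgf measured 4.24 on replicate 3 of the ED14.5 controls, against 5.07 to 5.22, and 5.80 on replicate 2 of the ED14.5 SL group, against 4.60 to 4.78, all below background. Flt1 measured 7.37 on replicate 1 of the ED14.5 controls, against 7.76 to 7.81, on 1 of the 2 arrays whose exon and intron probes were least separated. Tek measured 8.62 on replicate 4 of the ED7.5 SL group, against 8.87 to 8.91.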

How the results depend on the processing

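Over 1876 combinations of a member, a comparison and an alternative setting, 1851 kept their side of the threshold, 23 lost a call, 2 gained one and 0 reversed. All 9 lost calls between PD7.5 and ED7.5 were those of Kdr, which left 1 member higher in place of 2 with control arrays only, with SL arrays only and without the 2 arrays of low separation (chosen after seeing the data); leaving out each replicate gave 1 to 2. The 14 lost calls between PD7.5 and ED14.5 were those of Pgf, which left 0 members lower with array weights, with control or SL arrays only and without the low separation arrays, as did the filter for genes above background on at least 4 arrays, which dropped Pgf; a second quantile normalization gave 2, and leaving out each replicate gave 0 to 1. Genes called of all named genes for SL at ED14.5, 10 as reported, ranged from 0 to 283, at ED7.5 from 0 to 12 and at PD7.5 from 0 to 5, with each replicate left out included. For the interactions, reported as 15, 1 and 5, they ranged from 8 to 46, from 0 to 10 and from 1 to 28. No member was among the calls.

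Same-numbered replicates of the 2 arms did not deviate together at any age, with correlations of −0.165 to 0.0698 at ED7.5, −0.00286 to 0.0288 at ED14.5 and −0.0164 to 0.116 at PD7.5, so the numbers were not taken as a pairing. Under a replicate block the call of every member was the same in every comparison, and 0 genes in place of 10 passed for SL at ED14.5. Dim genes limit what can be read: Pgf in both livers, and Angpt1 and Angpt2 where arrays lie at background.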

Other observations

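The trophoblast genes, which belong to the implantation site as the source of much Pgf and soluble VEGFR1 in the placenta, were low at ED7.5: 3 of 9 measured were above background on every control array there, and 4 were below it on every one. Hand1, a factor of trophoblast giant cells, averaged 7.52 ± 0.844 (SD, n = 8) at ED7.5 and was above background on 8 of 8 arrays, against none at ED14.5 and PD7.5. Prl2c2 was above it on 4 of 8 and averaged 5.89 ± 1.34. Uterine natural killer genes, another known source of VEGF-family ligands in the decidua, were above background on every ED7.5 control array for 8 of 9 measured, with a summed level of 79.2 to 86.6, and below it on every ED14.5 control array for 8 of 9. The part of these cells in the levels of Pgf, Vegfa and Angpt2 was not tested.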
